A study of Mus musculus with 8 samples.

Results

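The core clock genes are the 10 genes Clock, Arntl, Per1, Per2, Per3, Cry1, Cry2, Nr1d1, Nr1d2 and Dbp. They were taken by symbol from a table of read counts, where all 10 were found among 26667 genes, and all 10 passed the filter on low counts. The counts came from mouse undifferentiated pleomorphic sarcoma (UPS), a soft tissue tumour grown in hind limb muscle, in 4 KP tumours (numbered 5 to 8) and 4 KPH2 tumours (numbered 1 to 4). KP mice carried Trp53 fl/fl, which an injected adenovirus expressing Cre recombinase (Ad-Cre) deleted. KPH2 mice shared the whole KP genotype and carried, in addition, Epas1 fl/fl, so that Ad-Cre also removed HIF-2α, the protein that Epas1 encodes. Both groups were of mixed 129/C57BL/6 background, of both sexes, and at least 8 weeks old at injection. The sequenced material was whole fixed and embedded tumour tissue with 1 library per tumour, so Cre-exposed tumour cells and host cells were read together. The time of day at which each tumour was taken is not given in the sources used here. The study left 1 HIF-2α knockout tumour out as a technical outlier, and the deposited table of 7 tumours lacks KPH2 1. The study's text is not uniform on which group lost a tumour. Differences were therefore fitted over KP 5 to KP 8 and KPH2 2 to KPH2 4, and the value of KPH2 1 is given apart.

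The circadian clock is a transcriptional feedback loop that runs in most cells of the body, including muscle fibres, fibroblasts and macrophages. CLOCK and BMAL1, the product of Arntl, are basic helix-loop-helix PAS (bHLH-PAS) proteins that bind as a pair to E-boxes and switch on the Per, Cry, Nr1d1, Nr1d2 and Dbp genes. PER and CRY proteins return to the nucleus and repress CLOCK and BMAL1. REV-ERBα and REV-ERBβ, from Nr1d1 and Nr1d2, repress Arntl through ROR response elements (ROREs), and DBP drives output genes through D-boxes. HIF-2α is also a bHLH-PAS protein, which joins the loop's activators in the same family. In a rhythmic tissue the transcript levels of most of these genes depend on the hour of sampling.

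Of the 10 genes, 9 had a RefSeq promoter window on GRCm38.p6, 13 windows in all, each from 250 bases before to 50 bases after a transcription start. Per2 had none. Stretches from 5 members that hold the letters of a clock element are shown, since through such elements the proteins of the loop act on each other's genes. Capitals mark the matched letters, and each sequence runs 5′ to 3′ on the strand of its gene. The lines give, in order, Per3 on chr4:151044796-151044895 (minus strand), Per1 on chr11:69098749-69098848 (plus strand), Cry1 on chr10:85185065-85185164 (minus strand), Nr1d1 on chr11:98775378-98775457 (minus strand) and, in the first exon of a second Arntl start, Arntl on chr7:113207531-113207560 (plus strand).
Per3: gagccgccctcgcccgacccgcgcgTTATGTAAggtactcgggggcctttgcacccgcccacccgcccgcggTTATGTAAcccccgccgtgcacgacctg
Per1: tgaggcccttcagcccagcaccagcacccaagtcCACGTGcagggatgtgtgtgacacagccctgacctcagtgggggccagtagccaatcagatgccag
Cry1: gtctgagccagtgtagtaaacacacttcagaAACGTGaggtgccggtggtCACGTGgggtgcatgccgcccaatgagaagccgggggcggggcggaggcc
Nr1d1: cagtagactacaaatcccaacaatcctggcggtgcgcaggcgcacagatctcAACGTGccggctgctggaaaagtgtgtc
Arntl: aggcagaaagTAGGTCAgggacggaggtgc

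The E-box CACGTG was found before the start of Per1, at 166 bases, and of Cry1, at 60 bases. The variant CACGTT, read on either strand, was found in Cry1 at 79 bases, in Nr1d1 at 28 bases and in Cry2 at 166 bases before the start. Per3 was the member with a D-box, searched as TTATGTAA or TTACGTAA on both strands, and it held 2 copies, at 205 and 158 bases before the start. The RORE letters TAGGTCA were found in Arntl, with their first base at position 31 of the transcript. Over all 32851 RefSeq windows, 7.15% held CACGTG, 4.68% held CACGTT, 1.06% held a D-box and 2.61% held TAGGTCA. The HIF core, ACGTG or GCGTG on both strands, was found in 10 of the members' 13 windows and in 43.8% of all windows. ACGTG lies within CACGTG and within CACGTT read on its other strand, so the matches of these motifs overlap. The matches describe letters in these windows and were not tested for binding.

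Whether loss of HIF-2α accompanied a shift in the clock genes was asked by comparing KPH2 with KP tumours. By edgeR's quasi-likelihood model, with p-values adjusted by Benjamini-Hochberg, 0 of the 10 members reached the threshold of 0.05, which 1.96% of 14867 tested genes did. Over all 8 tumours the count was also 0, beside 0.00675% of genes. At an unadjusted p under 0.05 there was 1 member, Arntl, which was lower in KPH2, against 17.8% of all tested genes (9.26% lower in KPH2). Arntl was also the member whose KP and KPH2 levels did not overlap, against 16.9% of all tested genes (8.15% lower in KPH2). By the Wald test of DESeq2, 1 member passed, again Arntl, against 6.97% of the genes that test could judge. The fitted difference, KPH2 minus KP on the log2 scale, was below 0 for 7 members and above 0 for 3, with a median of -0.031 beside -0.018 for all tested genes. A gene is termed called where its adjusted p was under 0.05, and levels are given as counts per 1000000 reads of the normalised library (CPM). The share of members called thus stood near that of all genes. The 1 member of 10 at an unadjusted p under 0.05, which was also the 1 without overlap, did not exceed the shares of all genes. Arntl was that member and is described first.

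**Figure D1:**
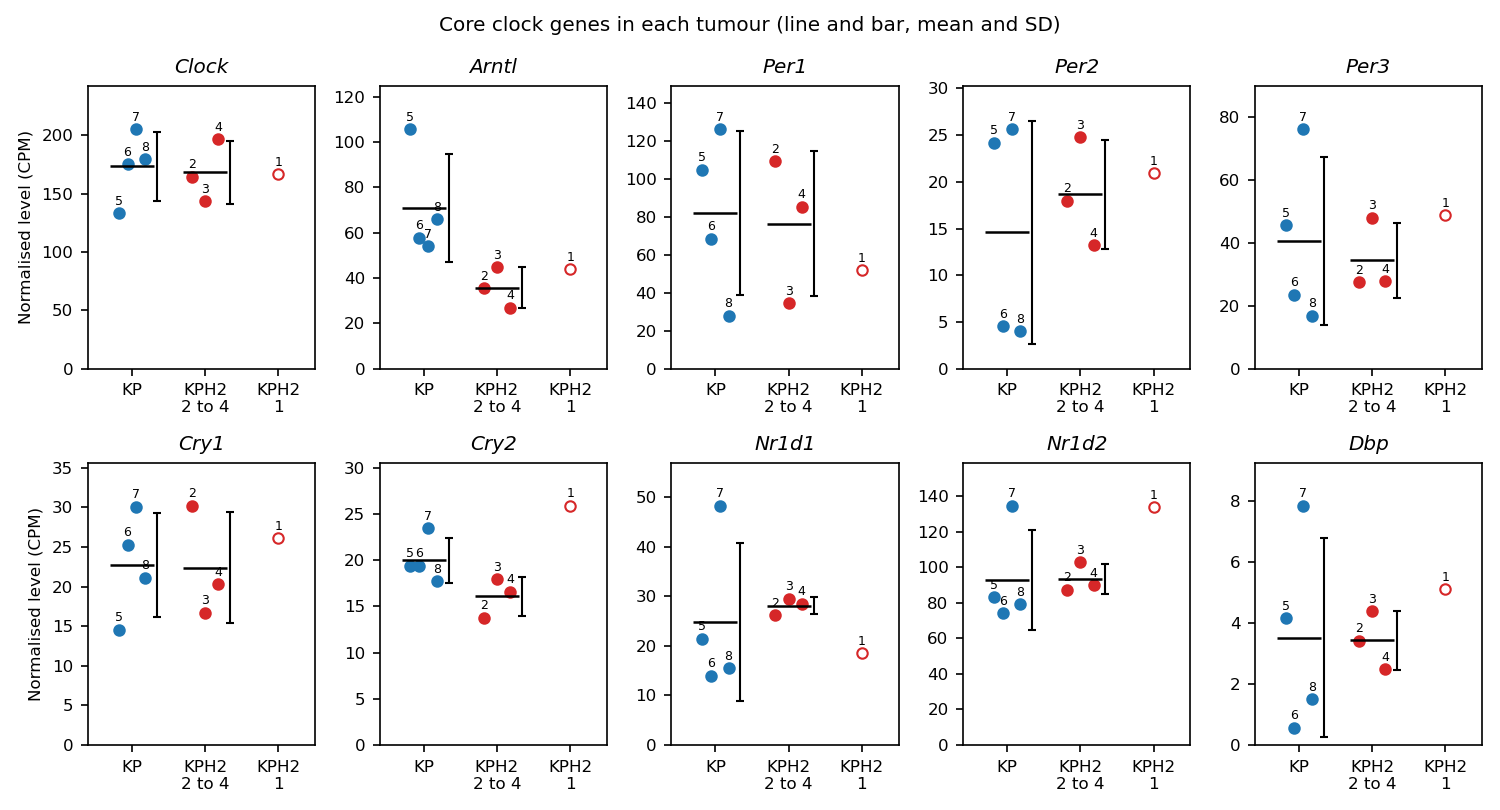
Normalised level (CPM, linear axis from 0) of each core clock gene in each tumour, with tumour numbers beside the points, KP in blue, KPH2 2 to 4 in filled red and KPH2 1 as an open point. Lines and bars give the mean and SD. Arntl is the panel in which every KPH2 point, from 26.8 to 44.9 CPM, lies below every KP point, from 54.0 to 106 CPM.

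Arntl encodes BMAL1, the partner of CLOCK and the subunit without which the loop does not run. Its level was 106, 57.9, 54.0 and 66.1 CPM in KP 5, 6, 7 and 8, and 35.5, 44.9 and 26.8 CPM in KPH2 2, 3 and 4. KPH2 1 stood at 43.9 CPM. All 4 KPH2 tumours, KPH2 1 included, lay below the lowest KP tumour, a pattern shared by 4.39% of the genes tested over 8 tumours. KP 5 stood well above the other KP tumours, and KPH2 4 was the lowest tumour of all. The mean was 70.9 ± 23.8 CPM in KP (SD, n = 4) and 35.7 ± 9.06 CPM in KPH2 2 to 4 (SD, n = 3). The fitted log2 difference was -0.99 (SE 0.28), with a 95% interval from -1.64 to -0.35, which is 0.503 times the KP level. Its Benjamini-Hochberg adjusted p from edgeR was 0.119, so the difference did not pass over all genes. With all 8 tumours the log2 difference was -0.91 (SE 0.25) and the edgeR adjusted p was 0.184. DESeq2 gave -0.98 with an adjusted p of 0.0251, and over the 18 alternatives the adjusted p ran from 0.0251 to 0.355. For the single gene, an exact two-sided permutation test of mean log2 CPM gave p = 0.029 over the 35 splits of 7 tumours and p = 0.029 over the 70 splits of 8. These are the smallest values that the design allows. Arntl was singled out as the member whose groups did not overlap, and such separation by itself puts this test at or next to its smallest value. The p-values therefore restate the separation, and they are not adjusted for the choice of Arntl among the members. Over 7 tumours, 16.9% of all tested genes had groups without overlap in either direction.

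Leaving out each tumour in turn kept the Arntl difference between -1.19 and -0.72 on the log2 scale, with edgeR adjusted p from 0.126 to 0.313. Muscle RNA also moved with the groups. The summed level of 24 skeletal muscle markers was 1806 to 3304 CPM in KP, 1489 CPM in KPH2 1 and 4282 to 19334 CPM in KPH2 2 to 4, and all 24 had a fitted difference above 0, of which 2 were called. By the mean log2 CPM of these markers KPH2 1, at 3.56, lay just above KP 7, at 3.52, and below the other KP tumours. With the muscle score as a covariate the Arntl log2 difference was -1.87 (SE 0.40, edgeR adjusted p 0.355) over 7 tumours, where 0.0202% of genes were called, and -0.99 (SE 0.31, edgeR adjusted p 0.329) over 8. The score, the mean log2 CPM of the markers, ran from 3.52 to 4.75 in KP and from 5.26 to 7.59 in KPH2 2 to 4. Over 7 tumours it therefore cannot be told apart from genotype, for Arntl or any other gene. Macrophage markers, 8 of 8, had fitted differences below 0, with none called and summed levels of 2081 to 4210 CPM in KP and 1520 to 2273 CPM in the 4 KPH2 tumours. Endothelial markers were below 0 for 5 of 6, with none called, at 247 to 517 CPM in KP and 191 to 271 CPM in KPH2. Fibroblast or mesenchymal markers were below 0 for 6 of 7, with 1 called lower, at 12410 to 24469 CPM in KP and 9655 to 17435 CPM in KPH2. Schwann cell markers summed to 11 to 17.5 CPM in the 8 tumours, with 1 of 3 tested called higher, and the keratinocyte markers Krt5, Krt14 and Krt1 were at 0 in every tumour. Adipocyte markers summed to at most 12.5 CPM, with none tested. The part of these other cell types in the Arntl difference was not tested. In whole tumours, fewer cells of a type and less RNA per cell cannot be told apart.

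Clock, the other activator of the pair, did not follow Arntl. It stood at 133, 175, 205 and 179 CPM in KP 5 to 8 and at 165, 144 and 197 CPM in KPH2 2 to 4, with 167 CPM in KPH2 1. The groups overlapped throughout, and KP 5, the highest tumour for Arntl, was the lowest for Clock. The fitted log2 difference was -0.04 (SE 0.18, 95% interval -0.46 to 0.38, edgeR adjusted p 0.935). The interval leaves out a change of the size fitted for Arntl. The CPM of Arntl relative to that of Clock ran from 0.263 to 0.795 in KP and from 0.136 to 0.313 in the 4 KPH2 tumours, and these ranges overlap.

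**Figure D2:**
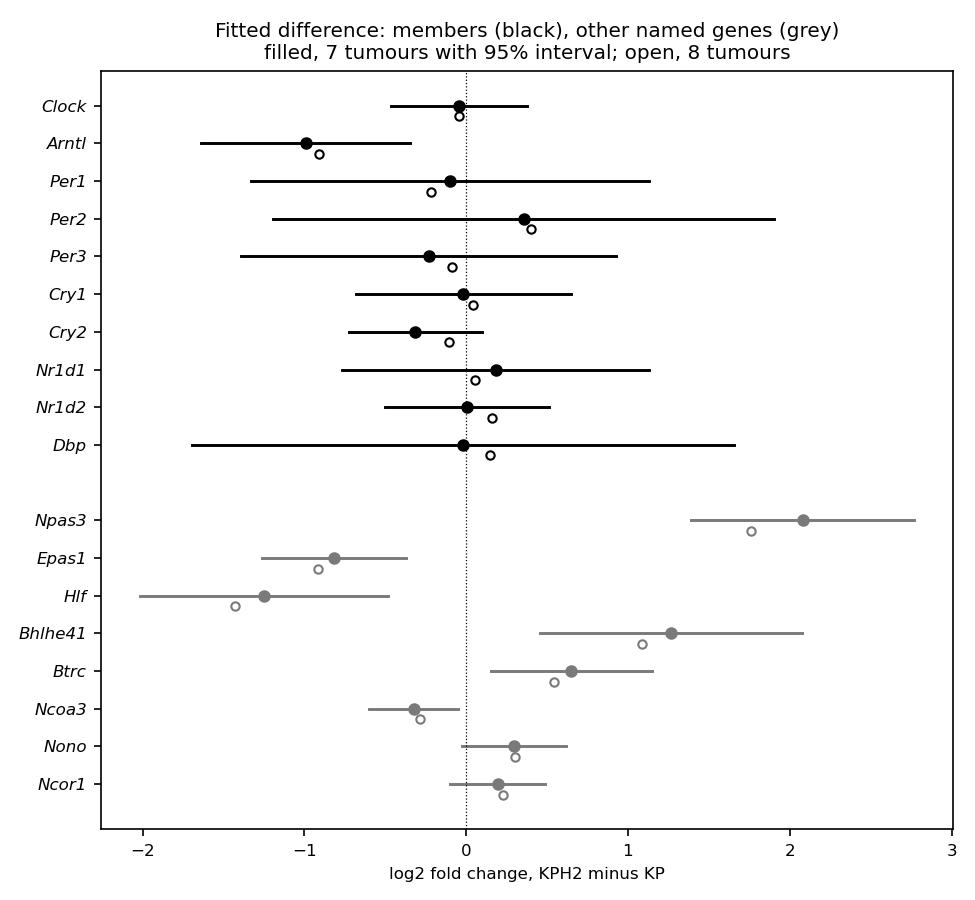
Fitted log2 fold change, KPH2 minus KP (horizontal axis), for the 10 core clock genes in black and for the other named clock and bHLH-PAS genes in grey. Filled points with lines give the 7 tumours and their 95% interval, and open points give 8 tumours. Arntl, at -0.99, is the black point whose interval leaves out 0.

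The Period genes encode repressors that CLOCK and BMAL1 switch on, and their levels varied widely between tumours of 1 genotype. Per1 stood at 105, 68.5, 126 and 27.9 CPM in KP 5 to 8, at 109, 34.4 and 85.3 CPM in KPH2 2 to 4 and at 51.9 CPM in KPH2 1. Both groups spanned much the same range. Its fitted log2 difference was -0.10 (SE 0.53, 95% interval -1.33 to 1.13, edgeR adjusted p 0.948). Per2 stood at 24.2, 4.53, 25.7 and 4.00 CPM in KP 5 to 8, at 18, 24.8 and 13.2 CPM in KPH2 2 to 4 and at 20.9 CPM in KPH2 1. KP 6 and KP 8 were low and apart from the 6 other tumours, which lay between 13.2 and 25.7 CPM. The log2 difference in Per2 was 0.36 (SE 0.67, 95% interval -1.19 to 1.91, edgeR adjusted p 0.839), and the difference in mean log2 CPM was 0.79 (exact permutation p = 0.4, two-sided, 7 tumours). The fitted value was 0.06 without KP 6, 0.03 without KP 8, 0.10 without KPH2 3, 0.75 without KP 5, 0.76 without KP 7 and 0.55 without KPH2 4, so its size rests on single tumours. Per3 stood at 45.5, 23.5, 76.2 and 16.8 CPM in KP 5 to 8, at 27.5, 48.0 and 27.7 CPM in KPH2 2 to 4 and at 48.8 CPM in KPH2 1. As in Per2, KP 6 and KP 8 were the lowest tumours. The log2 difference in Per3 was -0.23 (SE 0.50, 95% interval -1.39 to 0.93, edgeR adjusted p 0.861). For all 3 Period genes the interval holds both 0 and a change as large as that of Arntl in at least 1 direction.

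The Cryptochrome genes, partners of PER in repression, were steadier. Cry1 stood at 14.6, 25.3, 30.1 and 21.1 CPM in KP 5 to 8, at 30.2, 16.7 and 20.3 CPM in KPH2 2 to 4 and at 26.1 CPM in KPH2 1. The groups covered the same range, with a log2 difference of -0.02 (SE 0.29, 95% interval -0.68 to 0.65, edgeR adjusted p 0.983). Cry2 stood at 19.4, 19.4, 23.4 and 17.7 CPM in KP 5 to 8 and at 13.8, 17.9 and 16.6 CPM in KPH2 2 to 4. Here KPH2 2 and KPH2 4 lay below all KP tumours and KPH2 3 just above KP 8, while KPH2 1, at 25.9 CPM, was the highest of the 8. The log2 difference was -0.31 (SE 0.18, 95% interval -0.73 to 0.10, edgeR adjusted p 0.418), and with all 8 tumours it was -0.11 (SE 0.21, edgeR adjusted p 0.864). An exact two-sided permutation test for Cry2 gave p = 0.086 over 7 tumours and p = 0.543 over 8. Exons of Cry2 overlap those of D930015M05Rik on the opposite strand over 149 bases.

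The REV-ERB genes encode the nuclear receptors that repress Arntl. Nr1d1 stood at 21.5, 14.0, 48.3 and 15.6 CPM in KP 5 to 8, at 26.2, 29.5 and 28.5 CPM in KPH2 2 to 4 and at 18.5 CPM in KPH2 1. The 3 KPH2 tumours of the fit were close together, above 3 KP tumours and below KP 7. The log2 difference in Nr1d1 was 0.18 (SE 0.41, 95% interval -0.77 to 1.13, edgeR adjusted p 0.868). Without KP 7 it was 0.72, with an edgeR adjusted p of 0.158, and with the muscle score as a covariate over 7 tumours it was 0.96 (SE 0.80, edgeR adjusted p 0.929). With all 8 tumours the Nr1d1 difference was 0.05 (SE 0.39, edgeR adjusted p 0.967), and with the score over 8 it was 0.05 (SE 0.54, edgeR adjusted p 0.98). Nr1d2 stood at 83.1, 74.4, 135 and 79.3 CPM in KP 5 to 8, at 87.5, 103 and 89.8 CPM in KPH2 2 to 4 and at 134 CPM in KPH2 1. KP 7 and KPH2 1 stood above the other tumours, and the log2 difference was 0.01 (SE 0.22, 95% interval -0.50 to 0.52, edgeR adjusted p 0.99). Neither repressor of Arntl was thus called in either direction. Exons of Nr1d1 overlap those of Thra on the opposite strand over 263 bases.

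Dbp, the PAR-bZIP output gene, was the member with the lowest level. Its counts were 56, 4, 53 and 20 reads in KP 5 to 8, 38, 44 and 22 reads in KPH2 2 to 4 and 64 reads in KPH2 1. These gave 4.16, 0.566, 7.86 and 1.51 CPM in KP, 3.42, 4.40 and 2.48 CPM in KPH2 2 to 4 and 5.12 CPM in KPH2 1. All KPH2 tumours lay within the range of KP, whose lowest and highest tumours, KP 6 and KP 7, differed 13.9-fold. The fitted log2 difference was -0.02 (SE 0.73, 95% interval -1.69 to 1.65, edgeR adjusted p 0.992). The difference in mean log2 CPM had the opposite sign, 0.45 (exact permutation p = 0.657, two-sided, 7 tumours). Differences inside that interval could not be told from 0 in these tumours, and exons of Dbp overlap those of Sphk2 on the opposite strand over 539 bases.

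Per kilobase of exon, the mean level in KP was highest for Arntl, at 24.4 CPM per kb, followed by Nr1d2 at 19.9, Clock at 17.5 and Per1 at 17.4 CPM per kb. Nr1d1 at 9.13, Cry1 at 7.53, Per3 at 6.75 and Cry2 at 5.03 CPM per kb came next, and Per2 at 2.5 and Dbp at 1.92 CPM per kb were last. In KPH2 2 to 4 the order began with Nr1d2 at 20.0, Clock at 17.0, Per1 at 16.2 and Arntl at 12.3 CPM per kb. In KPH2 1 it began with Nr1d2 at 28.7 and Clock at 16.8, followed by Arntl at 15.1 and Per1 at 11 CPM per kb. Without KP 5 the KP means were 20.4 CPM per kb for Arntl and 20.6 CPM per kb for Nr1d2, and in KP 7 Arntl, at 18.6 CPM per kb, stood below Nr1d2, Per1 and Clock. Arntl was the highest member in KP 5, KP 6 and KP 8, at 36.4, 19.9 and 22.7 CPM per kb. Clock, the next member in KP 6 and KP 8, stood at 17.7 and 18.1 CPM per kb there. The lead of Arntl in the KP mean thus depended on KP 5, while KP 7 was the KP tumour in which Arntl did not come first. By the mean, Arntl stood after Nr1d2, Clock and Per1 in KPH2 2 to 4, and it stood after Nr1d2 and Clock in KPH2 1. Given SDs such as 23.8 CPM around a mean of 70.9 CPM for Arntl in KP, and 43.2 around 81.9 CPM for Per1, neighbours among the first 4 places did not differ beyond their spread.

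The spread between tumours of 1 group differed from member to member. The SD of log2 CPM within groups had a median of 0.532 over the 10 members beside 0.320 over all tested genes. Dbp, with 1.19, stood at percentile 96.6 of all tested genes, Per2, with 1.15, at percentile 96.3, and Per1, with 0.931, at percentile 92.9. Per3, with 0.805, followed at percentile 89.9 and Nr1d1, with 0.625, at percentile 82.9. Cry2, with 0.178, stood at percentile 15.2 and Clock, with 0.249, at percentile 33.5, while Nr1d2, with 0.313, stood at percentile 48.6. The Period genes, Dbp and Nr1d1 were thus the most variable members, and Clock, Cry2 and Nr1d2 varied less than the median gene. The SD of log2 CPM was larger in KP than in KPH2 2 to 4 for 9 of 10 members, from 1.44 against 0.451 for Per2, 1.5 against 0.392 for Dbp and 0.803 against 0.088 for Nr1d1 to 0.966 against 0.874 for Per1, 0.444 against 0.433 for Cry1 and 0.262 against 0.228 for Clock. Cry2 went the other way, with 0.168 against 0.192, and the median of all tested genes was 0.326 in KP and 0.252 in KPH2 2 to 4. Whether the groups differ in spread was not tested.

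KP 7 was the highest of the 8 tumours for 7 members, namely Clock, Per1, Per2, Per3, Nr1d1, Nr1d2 and Dbp. KP 6 was the lowest for Nr1d1, Nr1d2 and Dbp, and KP 8 for Per1, Per2 and Per3. Relative to the gene's mean over 8 tumours, Dbp stood 1.34 higher on the log2 scale in KP 7, and at -2.07 in KP 6 and -0.91 in KP 8. KP 6 and KP 7 were also the libraries with the fewest reads, 6463221 and 7073024 in a range that reached 13155510, and they stood at opposite ends for these genes. KPH2 2 was the highest of the 8 for Cry1 and the lowest for Cry2, KPH2 1 was the highest for Cry2 and KPH2 4 the lowest for Arntl. Among the KPH2 tumours, KPH2 1 and KPH2 3 lay above KPH2 2 and KPH2 4 for Per2, Per3, Dbp, Nr1d2, Arntl and Cry2. The part of depth in this spread was not tested.

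**Figure D3:**
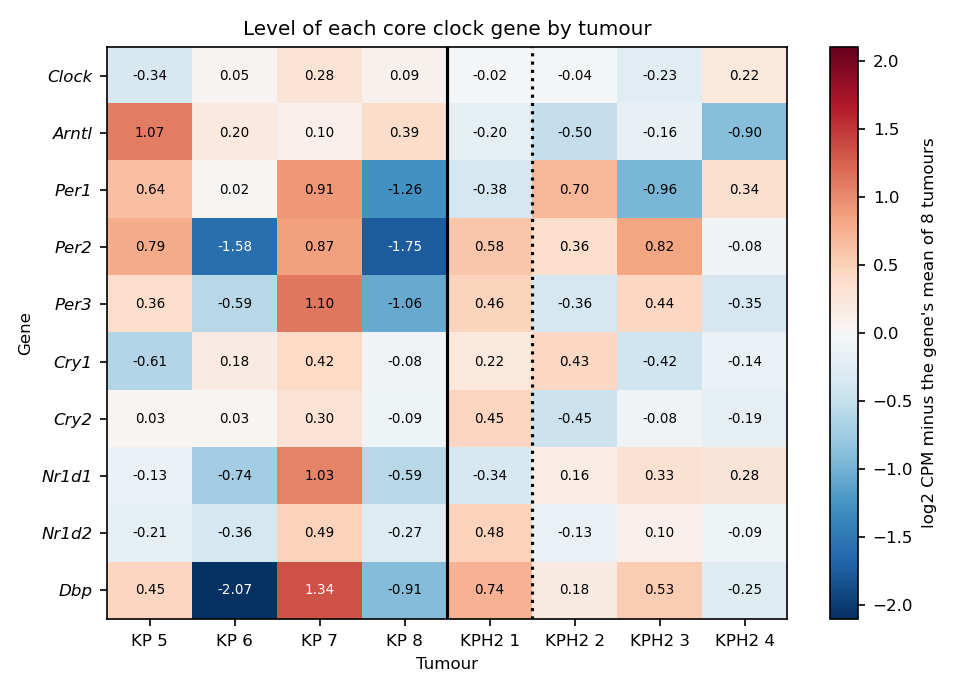
Level of each core clock gene (rows) in each tumour (columns), as log2 CPM minus the gene's mean over 8 tumours, with red above and blue below the mean. The solid line divides KP from KPH2 and the dotted line sets KPH2 1 apart. KP 7 is red in most rows, from 0.10 for Arntl to 1.34 for Dbp, while in Per2 KP 6 and KP 8 stand at -1.58 and -1.75. The lowest cell is Dbp in KP 6, at -2.07.

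Whether the members rose and fell together was examined in all 45 pairs over the 8 tumours, with exact permutation tests and Benjamini-Hochberg adjustment over the pairs. By Pearson's r, 2 pairs passed, Per2 with Per3 (adjusted p 0.0123, exact permutation) and Per2 with Dbp (adjusted p 0.0497, exact permutation), and by Spearman's rho 5 passed. Since KP 6 and KP 8 form a separate low cluster in Per2, r is given for the 6 other tumours. It was 0.835 for Per2 with Per3 (exact permutation p = 0.0431, n = 6) and 0.825 for Per2 with Dbp (exact permutation p = 0.05, n = 6), and 3 of the 45 pairs had an unadjusted p under 0.05. With 6 tumours the smallest p is 0.0014, so a single pair could not pass an adjustment over 45 pairs. KP 6 and KP 8 were also the lowest tumours in both Per3 and Dbp. This pair had r = 0.835 (exact permutation p = 0.00774, adjusted 0.116) and rho = 0.952 (exact permutation p = 0.00114, adjusted 0.0411) over 8 tumours. Its r was 0.797 without KP 7 and KP 8, the tumours farthest from the median of Per3, a setting that keeps KP 6. Without KP 6 and KP 8 it was 0.947 (exact permutation p = 0.00556, n = 6). Per3 with Nr1d2 had r = 0.811 (exact permutation p = 0.0133, adjusted 0.15) and rho = 0.905 (exact permutation p = 0.00456, adjusted 0.0411), and r = 0.69 without KP 7 and KP 8. Nr1d2 with Dbp had r = 0.80 (exact permutation p = 0.0179, adjusted 0.161) and rho = 0.905 (exact permutation p = 0.00456, adjusted 0.0411), and r = 0.782 without KP 7 and KPH2 1. The pairs passing by rho all lay among Per2, Per3, Nr1d2 and Dbp. By rho, 3 pairs passed over the 7 tumours and 0 as deviations from group means. Low counts of Dbp, down to 4 reads in KP 6, enter each of its pairs.

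Arntl formed none of the pairs that passed over 8 tumours. Over 8 tumours its r with the other 9 members ran from -0.49, with Clock, to 0.31, with Cry2, and the smallest of the 9 exact permutation p was 0.214. As deviations from group means over 7 tumours, the r of Arntl and Clock was -0.97. It was -0.86 without KP 5 and KPH2 3, the tumours farthest from the median of Clock. Exchanging deviations across both groups gave an exact permutation p = 0.00119 (adjusted 0.0268 over 45 pairs). Deviations from 2 separate means are not freely exchangeable between groups, so that p does not decide the question. With tumours exchanged only inside their own group, the exact permutation p was 0.0139 (adjusted 0.195). The smallest p of the 144 such orders is 0.00694, so a single pair could not pass an adjustment over 45 pairs there. Without KP 6 and KP 8 the r of Arntl was 0.74 with Per2 (exact permutation p = 0.103, n = 6). With Nr1d1, the repressor of Arntl, r was -0.30 and rho was -0.41 (exact permutation p = 0.464 and 0.327, n = 8). The CPM of Arntl was 1.12 to 4.93 times that of Nr1d1 in KP and 0.941 to 2.37 times in the 4 KPH2 tumours.

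**Figure D4:**
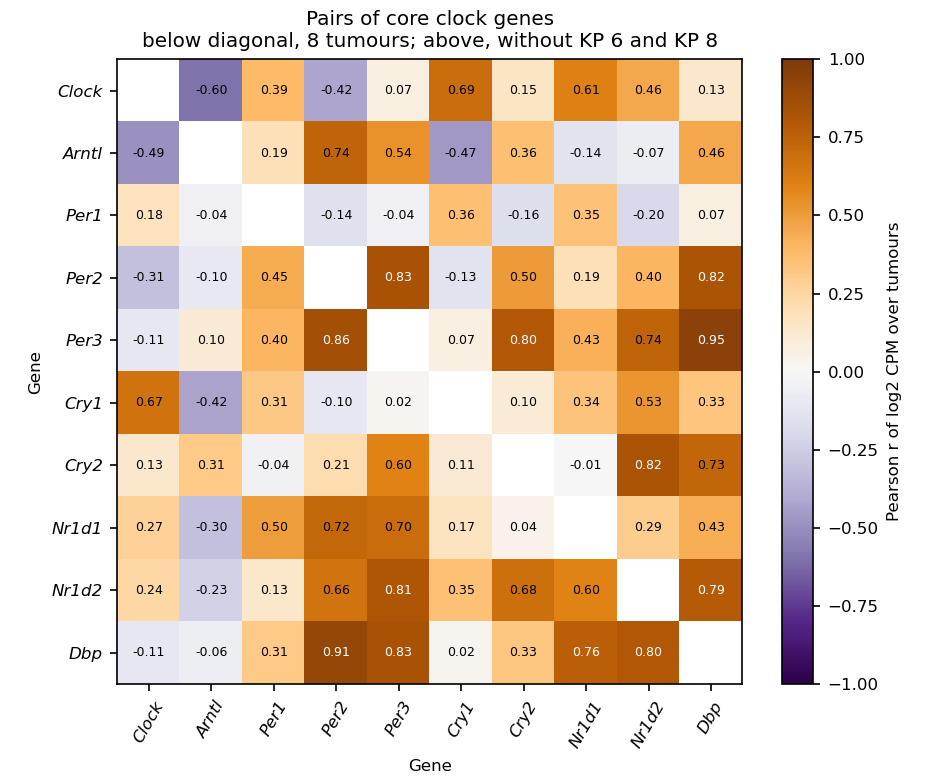
Pearson r of log2 CPM for each pair of core clock genes, over 8 tumours below the diagonal and without KP 6 and KP 8 above it, from purple (-1) to brown (1). Per2, Per3, Nr1d2 and Dbp form brown cells on both sides, such as 0.83 and 0.95 for Per3 with Dbp, while the Arntl row and column are pale or purple with 8 tumours.

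Among 11796 genes with a mean of at least 5 CPM, the 5 whose log2 CPM over the 8 tumours was most like that of Arntl were Msrb3, with r = 0.975, and Papss2, Tnxb, Sfxn5 and Slc41a3, each with r = 0.966. All 5 were lower in every KPH2 tumour than in every KP tumour. The 5 most like Nr1d1 were Ppfibp1 with r = 0.99, Rfx1 with 0.975, Whrn with 0.967, Mul1 with 0.962 and Tada3 with 0.961. In none of these did the groups separate. No clock gene was among either set, and the r values, picked as the highest of many genes over 8 points, serve as description.

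Of 27 other clock genes, a list that holds the ROR receptors, further PAR-bZIP factors, kinases and ubiquitin ligases of the clock, all were tested and none passed an edgeR adjusted p of 0.05. At an unadjusted p under 0.05 there were 4, with 3 higher and 1 lower in KPH2, beside 17.8% of all tested genes, and DESeq2 called 2, beside 6.97%. The median log2 difference was -0.023, beside -0.018 for all tested genes. Hlf, a PAR-bZIP factor related to DBP, stood at 8.32, 12.6, 5.49 and 6.26 CPM in KP 5 to 8, at 3.60, 3.40 and 3.27 CPM in KPH2 2 to 4 and at 1.84 CPM in KPH2 1. All KPH2 tumours lay below all KP tumours, with a log2 difference of -1.25 (SE 0.34, edgeR adjusted p 0.105) over 7 tumours and -1.43 (SE 0.35, edgeR adjusted p 0.15) over 8. DESeq2 gave Hlf an adjusted p of 0.0202. Its counts were small, from 23 to 112 reads.

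Bhlhe41 encodes DEC2, a repressor that competes for E-boxes. It stood at 5.12, 3.11, 6.82 and 4.91 CPM in KP 5 to 8 and at 18, 9.81 and 8.23 CPM in KPH2 2 to 4, while KPH2 1, at 6.31 CPM, lay within the KP range. The log2 difference was 1.27 (SE 0.35, edgeR adjusted p 0.116), and DESeq2 gave an adjusted p of 0.0226. Btrc, a ubiquitin ligase subunit that marks PER proteins for decay, stood at 24.7, 22.8, 14.2 and 15.9 CPM in KP and at 30.2, 30.1 and 31.2 CPM in KPH2 2 to 4, with 21.4 CPM in KPH2 1, within KP (log2 difference 0.65, SE 0.22, edgeR adjusted p 0.171). Nono, which binds PER proteins, ran from 155 to 197 CPM in KP and from 209 to 221 CPM in all 4 KPH2 tumours (log2 difference 0.30, SE 0.14, edgeR adjusted p 0.318). Ncor1, the co-repressor used by REV-ERB receptors, ran from 265 to 311 CPM in KP and from 317 to 359 CPM in all 4 KPH2 tumours (log2 difference 0.20, SE 0.13, edgeR adjusted p 0.48). Without overlap over 7 tumours these 4 of 27 genes were higher, beside 8.73% of all tested genes, and Hlf was lower, beside 8.15%. Over 8 tumours 2 of the 27, Nono and Ncor1, were higher without overlap, beside 3.76% of all genes.

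The bHLH-PAS family, to which CLOCK, BMAL1 and HIF-2α belong, was listed with 19 genes, of which 16 passed the low-count filter and 1 was called higher by edgeR, beside 1.24% of all tested genes. Epas1, the targeted gene, stood at 59.2, 83.2, 86.9 and 84.1 CPM in KP 5 to 8, at 53.4, 37.7 and 42.5 CPM in KPH2 2 to 4 and at 32.6 CPM in KPH2 1. Every KPH2 tumour lay below every KP tumour, with a log2 difference of -0.81 (SE 0.19, edgeR adjusted p 0.0742) over 7 tumours and -0.91 (SE 0.19, edgeR adjusted p 0.117) over 8. DESeq2 gave Epas1 an adjusted p of 0.0118, and without KP 5 the edgeR adjusted p was 0.0442. Reads over the whole gene were counted, so transcripts that lack the deleted part, and those of host cells, remain in this level. Ncoa3, a transcriptional coactivator of the family, ran from 132 to 143 CPM in KP and from 105 to 122 CPM in the 4 KPH2 tumours (log2 difference -0.32, SE 0.12, edgeR adjusted p 0.208). Lower without overlap in both fits were 3 of the 16 tested family members, Arntl, Epas1 and Ncoa3, beside 8.15% of all tested genes over 7 tumours and 4.39% over 8. Epas1 is the gene deleted in KPH2, and Arntl is a core clock gene already counted above. The count is therefore not a separate result about the family.

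The called family member was Npas3, known as a neuronal transcription factor. It stood at 1.93, 3.54, 2.82 and 2.94 CPM in KP 5 to 8 and at 8.73, 11.4 and 15.3 CPM in KPH2 2 to 4. KPH2 1, at 2.56 CPM, lay within KP. The log2 difference was 2.08 (SE 0.30, edgeR adjusted p 0.0222) over 7 tumours, and with all 8 tumours it was 1.76 (SE 0.49, edgeR adjusted p 0.184), where 0.00675% of genes were called. The call was also lost without KP 7 (log2 difference 2.08, edgeR adjusted p 0.0562), without KPH2 4 (1.85, edgeR adjusted p 0.0546) and with the muscle score as a covariate over 7 tumours (2.63, edgeR adjusted p 0.264) or over 8 (1.26, edgeR adjusted p 0.472). Npas4 did not pass the low-count filter and was not tested, with 9, 5, 2 and 5 reads in KP 5 to 8, 3, 0 and 1 reads in KPH2 2 to 4 and 0 reads in KPH2 1. Npas2, which can stand in for CLOCK, had a log2 difference of -0.45 (SE 0.44, edgeR adjusted p 0.647), and Arntl2, a close relative of Arntl, one of -0.08 (SE 0.56, edgeR adjusted p 0.96).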

How the data were processed

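RNA from fixed tumour sections was depleted of ribosomal RNA and sequenced with a stranded kit. Per the labels and methods, the authors aligned reads to GRCm38 (STAR 2.4) and deposited raw counts of uniquely aligned reads per RefSeq gene (HTSeq 0.6.1). The strand setting of the counting is not given in the sources used here. Tables of log2 values after DESeq2's rlog shrinkage, for 7 and for 8 tumours, were deposited too. Total counts ran from 6463221 to 13155510 per tumour. The labels do not say that each tumour came from a separate animal, so p-values measure the spread between these samples.

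Counts were analysed with edgeR 4.0.16 in R 4.3.3 (TMM normalization, minimum count 10 and minimum total count 15, robust quasi-likelihood test), and p-values were adjusted by Benjamini-Hochberg over the whole table. CPM used TMM library sizes over 8 tumours, and log2 CPM a prior count of 2. Alternatives used DESeq2 1.42.0, limma 3.58.1 on rlog values, other normalizations, filters, all 8 tumours, a muscle marker score, and each tumour left out. Levels per kb divide by exon length in GENCODE. Positions are on GRCm38.

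The members and lists were chosen with earlier results of these data known. Named were the 10 members, Epas1, up to 15 clock or bHLH-PAS genes that were called or did not overlap between groups over 7 tumours, and the 5 genes most like Arntl and Nr1d1. Npas2 and Arntl2 were named in addition, after their values were seen. A further allele that both groups share is not reported here.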

Additional observations from a re-analysis of the deposited data

Results flagged for a closer look

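In 36 groups of 4 tumours, single tumours were looked for whose distance from the nearest other tumour took up most of the group's range, a test that picks about 1 in 20 groups by chance. It picked 3. Nr1d2 stood at 134.8 CPM in KP 7, the highest KP tumour, with a gap of 0.856 of the range. Epas1 stood at 59.19 CPM in KP 5, the lowest KP tumour, with a gap of 0.867 of the range. Btrc stood at 21.42 CPM in KPH2 1, the lowest KPH2 tumour, with a gap of 0.888 of the range.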

How the results depend on the processing

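No paired analysis was possible because KP tumours are numbered 5 to 8 and KPH2 tumours 1 to 4, so the groups share no replicate number. The 292 genes called in all became 1166 with DESeq2, 1 with all 8 tumours, 19 with limma on rlog values of 8 tumours, 3 with the muscle score as a covariate and 0 with that score over 8 tumours. Leaving out 1 tumour gave 349 without KP 5, 130 without KP 6, 73 without KP 7, 130 without KP 8, 55 without KPH2 2, 159 without KPH2 3 and 153 without KPH2 4. Members called remained 0 except with DESeq2, which called 1, and other clock genes called remained 0 except with DESeq2, which called 2. The bHLH-PAS genes called went from 1 to 3 with DESeq2, to 0 with all 8 tumours, with rlog values of 8 tumours and with the muscle score over 7 or 8 tumours, and ranged from 0 to 2 when 1 tumour was left out. Members without overlap went from 1 to 2 without KP 6 and KP 8, an alternative chosen after seeing the data, which were Arntl and Cry2, beside 33.5% of all tested genes in that setting. By Pearson's r, pairs of members past the adjustment went from 2 to 1 in the 7 tumours and 5 for deviations from group means, of which 4 were positive. By Spearman's rho they went from 5 to 3 in the 7 tumours and 0 for deviations from group means. These deviations were exchanged across both groups. The cause of these shifts was not tested. Pairs numbered 0 when deviations were permuted within groups, also chosen after seeing the data, and 0 without KP 6 and KP 8, where the smallest p, 0.00694 and 0.0014, cannot carry a single pair past an adjustment over 45, so these counts say nothing of stability.

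Of 343 values for single genes under alternatives, 297 kept their direction and side of the threshold, 6 lost a call, all for Npas3, 5 gained one and 35 turned direction, each in a member that was not called. With the muscle score over 7 tumours the log2 difference turned to 0.46 for Clock, 0.95 for Per1, 0.43 for Cry1 and 0.25 for Dbp. With the score over 8 tumours, also chosen after seeing the data, it turned to 0.09 for Clock, 0.15 for Per3, 0.22 for Cry1, 0.14 for Cry2 and 0.42 for Dbp. With all 8 tumours it turned to 0.04 for Cry1 and 0.15 for Dbp, and the difference in mean log2 CPM to 0.09 for Per3 and 0.05 for Cry1. On rlog values of 8 tumours it turned to 0.07 for Per3, 0.04 for Cry1 and 0.31 for Dbp, and on those of 7 tumours to 0.10 for Dbp. When 1 tumour was left out it ran from -0.17 to 0.06 for Clock, -0.45 to 0.25 for Per1, 0.03 to 0.76 for Per2, -0.55 to 0.26 for Per3, -0.30 to 0.16 for Cry1, -0.01 to 0.72 for Nr1d1, -0.09 to 0.24 for Nr1d2 and -0.36 to 0.68 for Dbp. The Arntl difference stayed below 0 under every alternative run. Dbp had too few reads for the filter at a mean count of 50 and was not tested there.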
